A study of Mus musculus with 36 samples.

Results

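Counts of 34 genes of sterol and fatty acid synthesis were followed in 3 cell types of the mouse liver. They were taken as the rows of a fixed list of gene symbols, with no threshold on their values, and all 34 are among the 24421 gene symbols that each deposited table lists. They comprise 5 regulators, 18 genes of sterol synthesis, 1 sterol carrier and 10 genes of fatty acid synthesis. Hepatic stellate cells (HSCs) sit beside the sinusoids and store vitamin A. The walls of these capillaries are formed by liver sinusoidal endothelial cells (LSECs), and the parenchyma by hepatocytes. For each cell type there were 4 libraries taken 12 h after diphtheria toxin (DT), 4 taken 36 h after it, and 4 labelled WT, which the series describes as coming from mice given PBS. In this study the toxin removes the Kupffer cells, which are macrophages resident in the liver, and the question is how cells around them respond. All 36 libraries carry the strain label C57BL/6. Genotype, age and sex are not in the labels, nor is it stated whether a library stands for a single mouse, and toxin without depletion is not among the groups. An effect of the toxin or of a genotype therefore cannot be told apart from an effect of the depletion, and each p-value measures the spread between libraries, which may be technical.

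Gene counts per library ran from 25.4 to 31.7 (in units of 1000000 reads). Summed levels of 8 defining markers of each cell type fitted the labels, at 9220 to 18180 counts per 1000000 counts (CPM) for stellate cell markers in HSC libraries, 14620 to 22150 CPM for LSEC markers in LSEC libraries and 66470 to 118900 CPM for hepatocyte markers in hepatocyte libraries. Levels below are CPM on library sizes scaled together over the 36 libraries by the trimmed mean of M-values (TMM), given as mean ± SD over 4 libraries of a group unless stated. A gene is called where its p in the quasi-likelihood test of edgeR, adjusted by the Benjamini-Hochberg method over all genes tested, is under 0.05. All 34 genes passed the filter on low counts in each comparison. Where groups are said to overlap or not, this describes the libraries, and the share of all genes is given only where stated. In bulk RNA, fewer cells with a transcript and less transcript per cell cannot be told apart.

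Cells make cholesterol and fatty acids from acetyl-CoA through separate chains of enzymes, and both chains are controlled by the sterol regulatory element-binding proteins. Srebf2 encodes the form that mainly drives the sterol genes, and Srebf1 encodes forms of which the main one in liver drives the fatty acid genes. The membrane protein encoded by Scap carries these factors to the Golgi, where they are cut and released to the nucleus, and the proteins of Insig1 and Insig2 hold them back in the endoplasmic reticulum when sterols are plentiful. Insig1 is itself a target of these factors. The liver is a main site of both syntheses, and hepatocytes export the products as lipoproteins.

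The start-site sequences are shown for 6 of the genes called at 12 h, as described below. The part of these sequences in the changes was not tested. Acacb and Acss2 were called lower and Scap higher in both HSC and LSEC libraries at that time. Srebf2, Insig1 and Cyp51, called higher in HSC libraries, were added after their values were seen. RefSeq windows on GRCm38.p6, from 250 bases before to 50 bases after an annotated start, were at hand for 28 of the 34 genes (38 windows), and not for Fdps, Fdft1, Sqle, Stard4, Scd1 and Scd2. Capitals mark 3 motifs searched on both strands. They are CACCCCA (the core of the sterol regulatory element, a choice made after the data were seen), CCAAT or its complement ATTGG (bound by NF-Y), and CACGTG (an E-box), and no marked stretches overlap in these 6 windows. The windows lie at chr5:114165268-114165567 (+ strand) for Acacb, chr2:155517793-155518092 (+ strand) for Acss2, chr9:110333038-110333337 (+ strand) for Scap, chr15:82147019-82147318 (+ strand) for Srebf2, chr5:28071162-28071461 (+ strand) for Insig1 and chr5:4104648-4104947 (- strand) for Cyp51, and each reads 5′ to 3′ in the direction of transcription.
Acacb: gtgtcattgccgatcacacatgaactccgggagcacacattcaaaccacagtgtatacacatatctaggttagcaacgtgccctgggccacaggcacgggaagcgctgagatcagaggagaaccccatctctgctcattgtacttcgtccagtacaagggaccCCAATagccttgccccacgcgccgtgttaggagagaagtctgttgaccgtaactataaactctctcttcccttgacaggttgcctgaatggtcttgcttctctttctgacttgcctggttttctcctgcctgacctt
Acss2: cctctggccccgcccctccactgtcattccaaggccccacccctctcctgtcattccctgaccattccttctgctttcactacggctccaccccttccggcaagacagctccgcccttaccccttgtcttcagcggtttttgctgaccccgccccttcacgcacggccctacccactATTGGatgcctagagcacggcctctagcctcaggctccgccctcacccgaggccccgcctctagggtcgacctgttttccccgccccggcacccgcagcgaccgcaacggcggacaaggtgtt
Scap: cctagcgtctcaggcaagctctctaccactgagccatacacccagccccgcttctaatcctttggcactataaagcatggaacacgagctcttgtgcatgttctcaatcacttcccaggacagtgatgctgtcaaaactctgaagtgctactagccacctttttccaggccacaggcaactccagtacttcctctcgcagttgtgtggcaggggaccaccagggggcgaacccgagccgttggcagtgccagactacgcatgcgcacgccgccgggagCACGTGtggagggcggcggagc
Srebf2: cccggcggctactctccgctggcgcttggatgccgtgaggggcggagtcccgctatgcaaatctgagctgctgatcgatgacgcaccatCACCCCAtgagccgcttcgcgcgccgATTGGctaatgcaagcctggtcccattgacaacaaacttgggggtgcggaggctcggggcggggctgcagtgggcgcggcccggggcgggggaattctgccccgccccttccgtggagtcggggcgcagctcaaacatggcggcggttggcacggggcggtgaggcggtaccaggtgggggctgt
Insig1: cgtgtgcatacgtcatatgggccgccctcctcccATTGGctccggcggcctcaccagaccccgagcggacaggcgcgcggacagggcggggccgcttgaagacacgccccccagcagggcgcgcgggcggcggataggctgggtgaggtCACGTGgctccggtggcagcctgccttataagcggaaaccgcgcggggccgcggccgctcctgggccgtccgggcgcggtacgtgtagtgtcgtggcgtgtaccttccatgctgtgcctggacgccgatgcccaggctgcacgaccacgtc
Cyp51: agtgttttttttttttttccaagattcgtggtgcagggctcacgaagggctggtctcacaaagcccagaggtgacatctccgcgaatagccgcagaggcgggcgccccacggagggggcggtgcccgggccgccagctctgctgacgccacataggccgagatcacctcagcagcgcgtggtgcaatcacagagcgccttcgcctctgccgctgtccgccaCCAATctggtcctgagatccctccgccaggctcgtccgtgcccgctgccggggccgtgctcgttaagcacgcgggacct

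The Srebf2 window holds CACCCCA starting 161 bases before the start site. Windows of Hmgcs1, Acat2 and Gpam also held it, so that 4 of 38 windows of these genes (10.5%) had one, against 2504 of 32851 windows of all genes in the table (7.62%). CCAAT on either strand stood in 25 of 38 windows (65.8%), against 37.4% of all windows, and CACGTG in 6 of 38 (15.8%), against 7.15%. A match describes the letters of the window and is not shown to be a bound site.

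In WT livers nearly every gene of both pathways was highest in hepatocytes. Against hepatocytes, 33 of 34 genes were called lower in HSC WT libraries and 33 of 34 in LSEC WT libraries, where 35.9% and 36.3% of all 13389 genes tested were called lower, 43.2% and 42.7% higher, and 79.1% and 79% in either direction. The median log2 fold change over the 34 genes was -4.56 for HSCs and -4.33 for LSECs, against 0.18 over all genes for both. The same 33 to 1 division held at 12 h, where 33% and 34.5% of all genes were called lower, 41.8% and 41.7% higher, and 74.8% and 76.2% in all. It held at 36 h too with edgeR, where 34.7% and 35.2% were called lower, 41.7% and 41.8% higher, and 76.4% and 77% in all. There DESeq2 called 33 genes lower in both cell types and gave no adjusted p for Scd2, the gene that edgeR called higher. Without the filter edgeR called 32 lower in LSECs. With unscaled CPM the mean was below that of hepatocytes for 33 genes in HSC WT libraries and 32 in LSEC WT libraries. The largest gap was in Scd1, the stearoyl-CoA desaturase that makes monounsaturated fatty acids in liver, at 73.8 ± 34.3 CPM in HSC WT libraries and 29.2 ± 22.1 CPM in LSEC WT libraries, against 24690 ± 22380 CPM in hepatocyte WT libraries.

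**Figure D1:**
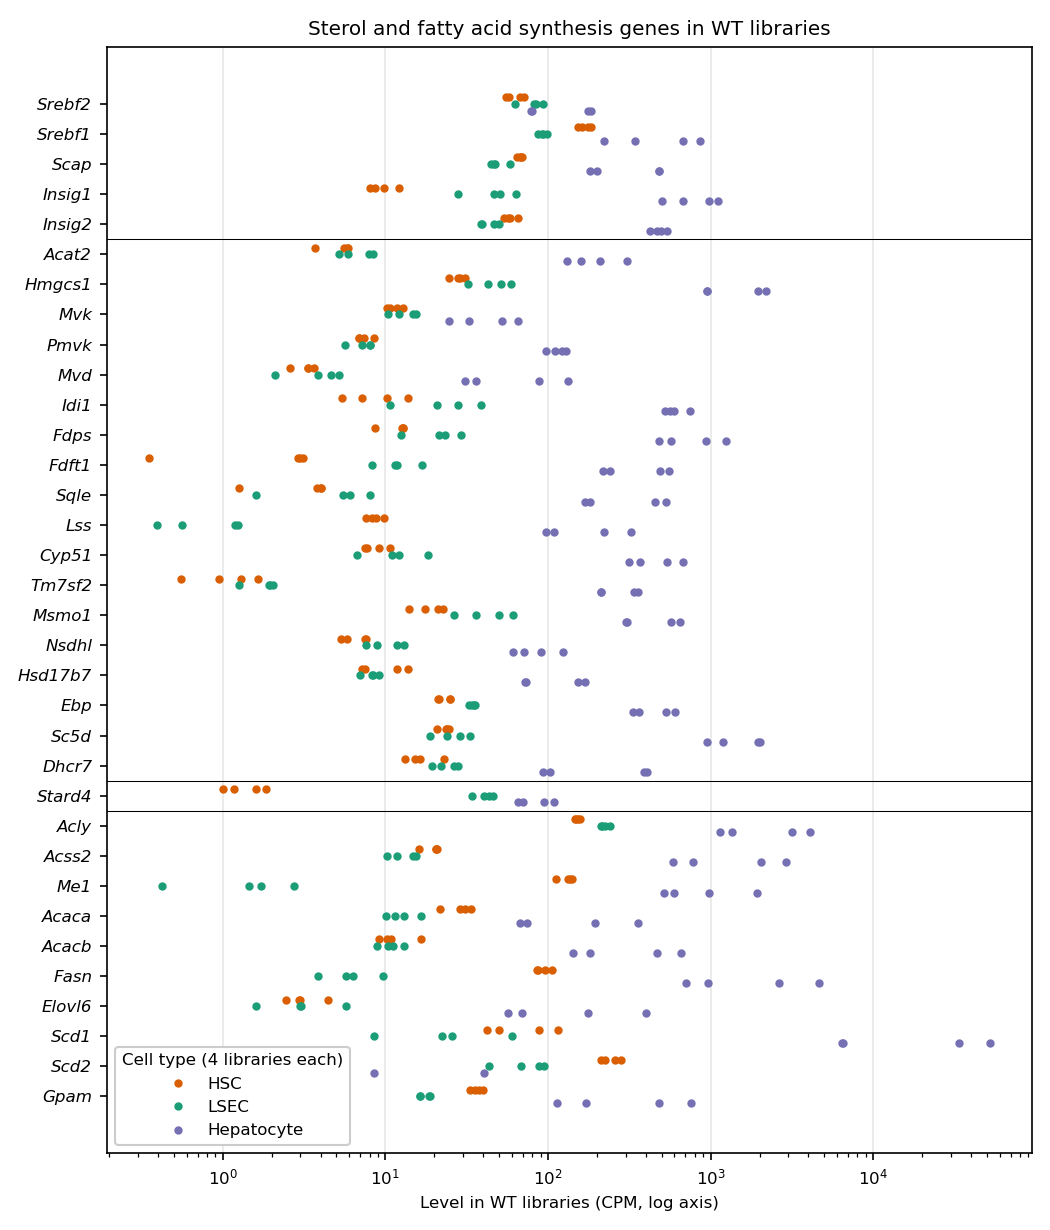
Levels of the 34 genes in the 12 WT libraries, in CPM on a log axis, with 1 point per library and thin lines between regulators, sterol genes, the sterol carrier and fatty acid genes. Hepatocyte points lie to the right of the others for nearly all genes, and Scd2 is the gene with the reverse order (243.9 ± 32.2 CPM in HSC, 73.6 ± 23.1 CPM in LSEC and 13.1 ± 18.6 CPM in hepatocyte WT libraries).

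Scd2, the desaturase paralogue known for its role in brain and other non-hepatic tissues, was the single gene called higher outside hepatocytes. It had 225, 211, 259 and 282 CPM in HSC WT replicates 1 to 4, 43.2, 68.7, 94.5 and 88.1 CPM in LSEC WT libraries, and 0.979, 2.31, 8.55 and 40.6 CPM in hepatocyte WT libraries. Every HSC library was above every LSEC library, and every LSEC library was above every hepatocyte library, by 4.19 ± 0.81 (SE) on the log2 scale for HSCs over hepatocytes (adjusted p = 3.05e-04) and 2.48 ± 0.76 for LSECs over hepatocytes (adjusted p = 0.00857). Per kilobase of exon the ratio of Scd1 to Scd2 was 0.208 to 0.499 in HSC WT libraries and 0.139 to 0.713 in LSEC WT libraries, against 1435 to 7453 in hepatocyte WT libraries. The 2 genes lie close together on chromosome 19, and how a read that matches both was counted is not given in the sources used here. In hepatocytes the libraries with the most Scd2 were also those with the most Scd1 at WT (33540 and 52270 CPM of Scd1 in replicates 3 and 4, against 6541 and 6407 CPM in replicates 1 and 2), so the part of Scd1 reads in the hepatocyte Scd2 count was not tested.

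Other paralogue pairs were also balanced differently in the 3 cell types. Per kilobase of exon, Insig1 was at 0.139 to 0.23 times the level of Insig2 in HSC WT libraries, at 0.789 to 1.44 times in LSEC WT libraries and at 1.13 to 2.66 times in hepatocyte WT libraries. The HSC range did not overlap either of the others. Acaca, the acetyl-CoA carboxylase whose malonyl-CoA feeds fatty acid synthesis, was at 1.83 to 2.72 times the level of Acacb in HSC WT libraries and 0.869 to 1.17 times in LSEC WT libraries, against 0.332 to 0.487 times in hepatocyte WT libraries. Acacb encodes the form at the mitochondrial surface, whose product restrains fatty acid oxidation. These 3 ranges did not overlap, so that the level per kilobase was higher for Acaca in each HSC library and for Acacb in each hepatocyte library. Srebf1 exceeded Srebf2 per kilobase in each WT library, by 2.55 to 3.6 times in HSCs, 1.17 to 1.63 times in LSECs and 3.26 to 5.57 times in hepatocytes.

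Between the non-parenchymal cells the genes differed in both directions. At WT, 6 of 34 genes were called higher and 9 lower in HSCs than in LSECs, which is 15 genes where 56.8% of all genes tested were called (29.7% higher and 27.1% lower). The share of the 34 genes that was called is below that of all genes. Of the 18 sterol synthesis genes 1 was higher and 7 were lower in HSCs, and of the 10 fatty acid genes 3 were higher and none was lower, with median log2 fold changes of -0.56 and 1.10 against 0.01 over all genes. The count of higher fatty acid genes is at the share of all genes called higher. Stard4, a cytosolic carrier of cholesterol, had 1.17, 1.01, 1.6 and 1.84 CPM in HSC WT libraries, against 34, 40.2, 46 and 43.5 CPM in LSEC WT libraries (log2 fold change -4.87 ± 0.23 SE, adjusted p = 4.04e-10). Me1, the malic enzyme that supplies NADPH, had the opposite order, with 112, 136, 141 and 133 CPM in HSC WT libraries, against 1.71, 0.425, 2.75 and 1.44 CPM in LSEC WT libraries (6.34 ± 0.55, adjusted p = 2.45e-07). For both genes the 2 cell types were far apart, and the same order was called at 12 h and at 36 h.

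Fasn, the fatty acid synthase, averaged 93.4 ± 9.27 CPM in HSC WT libraries and 6.39 ± 2.43 CPM in LSEC WT libraries (log2 fold change 3.85 ± 0.53). Lss, the lanosterol synthase that closes the sterol ring, averaged 8.63 ± 0.946 CPM in HSC WT libraries and 0.848 ± 0.434 CPM in LSEC WT libraries (3.31 ± 0.43), and was the single sterol synthesis gene called higher in HSCs. The enzymes before and after it were not called, with Sqle at 3.28 ± 1.35 CPM in HSC WT libraries and 5.28 ± 2.69 CPM in LSEC WT libraries (adjusted p = 0.253), and Cyp51 at 8.74 ± 1.45 and 12 ± 4.74 CPM (adjusted p = 0.177). Squalene synthase Fdft1, at 2.34 ± 1.33 CPM in HSC WT libraries and 12.1 ± 3.48 CPM in LSEC WT libraries, and the regulator Insig1, at 9.66 ± 1.77 and 47.3 ± 14.8 CPM, were lower in HSCs. At 12 h, 12 genes were called higher and 6 lower in HSCs than in LSECs (50.5% of all genes called, 27.3% higher and 23.2% lower), and at 36 h 3 and 7 (49.7%, with 25.5% and 24.2%). HSC and LSEC libraries with the same number deviated together, though at WT only 2 of 4 HSC libraries were closest to their own number. A fit of HSC and LSEC libraries alone took the number as a block. At WT it called 11 higher and 14 lower, where 8882 of all 12707 genes were called. At 36 h it called 11 higher and 12 lower, where 7929 of all 12785 genes were called. Without the block the same libraries gave 23 calls at WT (8349 over all genes) and 19 at 36 h (7748 over all genes). Most of the gain in calls thus came with leaving the hepatocyte libraries out of the fit.

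A few of these low levels were within reach of the hepatocyte RNA found in the sorted cells. The 8 hepatocyte markers stood in HSC WT libraries at 0.0502 to 0.437% of their hepatocyte level, and in LSEC WT libraries at 0.027 to 0.139%. By the same measure 32 of the 34 genes were above the highest marker in HSC WT libraries, the others being Tm7sf2, a sterol reductase, at 0.394% and Scd1 at 0.299%. In LSEC WT libraries 33 were above it, with Scd1 at 0.118% below and Me1 at 0.157% just above. In LSEC 12 h libraries the highest marker stood at 0.265%, and Lss (0.134%) and Scd1 (0.105%) were below it. In HSC 12 h libraries it stood at 0.835%, with Tm7sf2 (0.391%) and Scd1 (0.257%) below it. The part of hepatocyte RNA in these values was not tested.

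At 12 h after the toxin, Srebf2, Scap, Insig1 and 6 of the sterol synthesis genes from Mvd to Cyp51 were higher in HSCs. Acss2, Acacb, Me1 and Sc5d were lower. Of the 34 genes 11 were called higher and 4 lower in HSC 12 h libraries than in HSC WT libraries, which is 15 genes where 32% of all 12676 genes tested were called (17% higher and 15.1% lower). The median log2 fold change was 0.22 over the 34 genes and 0.01 over all genes. By role, 3 of 5 regulators rose and none fell, 6 of 18 sterol synthesis genes rose and 1 fell, Stard4 was not called, and 2 of 10 fatty acid genes rose and 3 fell. At 36 h none of the 34 was called against WT with edgeR or DESeq2, 1 had an unadjusted p under 0.05, and 0.142% of all genes were called.

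Among regulators, Srebf2 had 110.5, 96.8, 106.5 and 77 CPM in HSC 12 h replicates 1 to 4, against 54.9, 70.8, 57.9 and 67.5 CPM in HSC WT libraries. The groups did not overlap, and the log2 fold change was 0.66 ± 0.15 (SE, adjusted p = 0.0043). Insig1 had 17.5, 19.9, 17.5 and 13.9 CPM in HSC 12 h libraries, against 9.84, 8.65, 8.09 and 12.1 CPM in HSC WT libraries (0.85 ± 0.20, adjusted p = 0.00651), again with no overlap. Scap had 87.7, 75.5, 102 and 91.9 CPM in HSC 12 h libraries, against 68.6, 64.3, 67.4 and 69.4 CPM in HSC WT libraries, a smaller rise with the WT libraries closely grouped (0.43 ± 0.10, adjusted p = 0.00576). Srebf1 at 185.9 ± 27.1 and 168.4 ± 13.9 CPM, and Insig2 at 53.5 ± 6.22 and 58.6 ± 4.75 CPM, in HSC 12 h and HSC WT libraries, did not pass the test.

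In the sterol chain the genes that rose lay in its middle, from Mvd to Cyp51, and most of the chain was not called. That stretch was not unbroken. Idi1, the step between Mvd and Fdps, was not called, at 10 ± 2.78 CPM in HSC 12 h libraries and 9.17 ± 3.68 CPM in HSC WT libraries. Mvd, the decarboxylase that makes isopentenyl diphosphate, had 6.41, 7.81, 8.29 and 5.54 CPM in HSC 12 h libraries, against 2.61, 3.36, 3.34 and 3.63 CPM in HSC WT libraries (log2 fold change 1.14 ± 0.20, adjusted p = 0.00117). Cyp51, the lanosterol demethylase, had 22, 14.7, 20.7 and 15.5 CPM in HSC 12 h libraries, against 7.53, 7.7, 9.11 and 10.6 CPM in HSC WT libraries (1.08 ± 0.23, adjusted p = 0.00298). For both genes the lowest 12 h library was above the highest WT library. Lss had 13.8, 11.4, 15.4 and 11.9 CPM in HSC 12 h libraries, against 9.87, 8.71, 7.61 and 8.32 CPM in HSC WT libraries (0.63 ± 0.15, adjusted p = 0.0054), also without overlap. Farnesyl diphosphate synthase Fdps averaged 22.3 ± 7.03 CPM in HSC 12 h libraries and 11.8 ± 2.09 CPM in HSC WT libraries, squalene epoxidase Sqle 9.62 ± 2.91 and 3.28 ± 1.35 CPM, and squalene synthase Fdft1 6.9 ± 2.45 and 2.34 ± 1.33 CPM, and all 3 rose. In all 3 HSC WT replicate 1 was the lowest library, at 8.64 CPM of Fdps, 1.26 CPM of Sqle and 0.351 CPM of Fdft1. Sc5d, a late desaturase, fell to 17.7 ± 1.79 CPM in HSC 12 h libraries, against 23.3 ± 1.69 CPM in HSC WT libraries. The other 11 genes of the chain, among them the first steps (Acat2, Hmgcs1, Mvk and Pmvk) and Dhcr7, the reductase of the last step, were not called, with log2 fold changes between -0.30 for Dhcr7 and 0.48 for Nsdhl. Msmo1 averaged 18.7 ± 3.61 CPM in HSC 12 h libraries and 18.8 ± 3.85 CPM in HSC WT libraries.

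**Figure D2:**
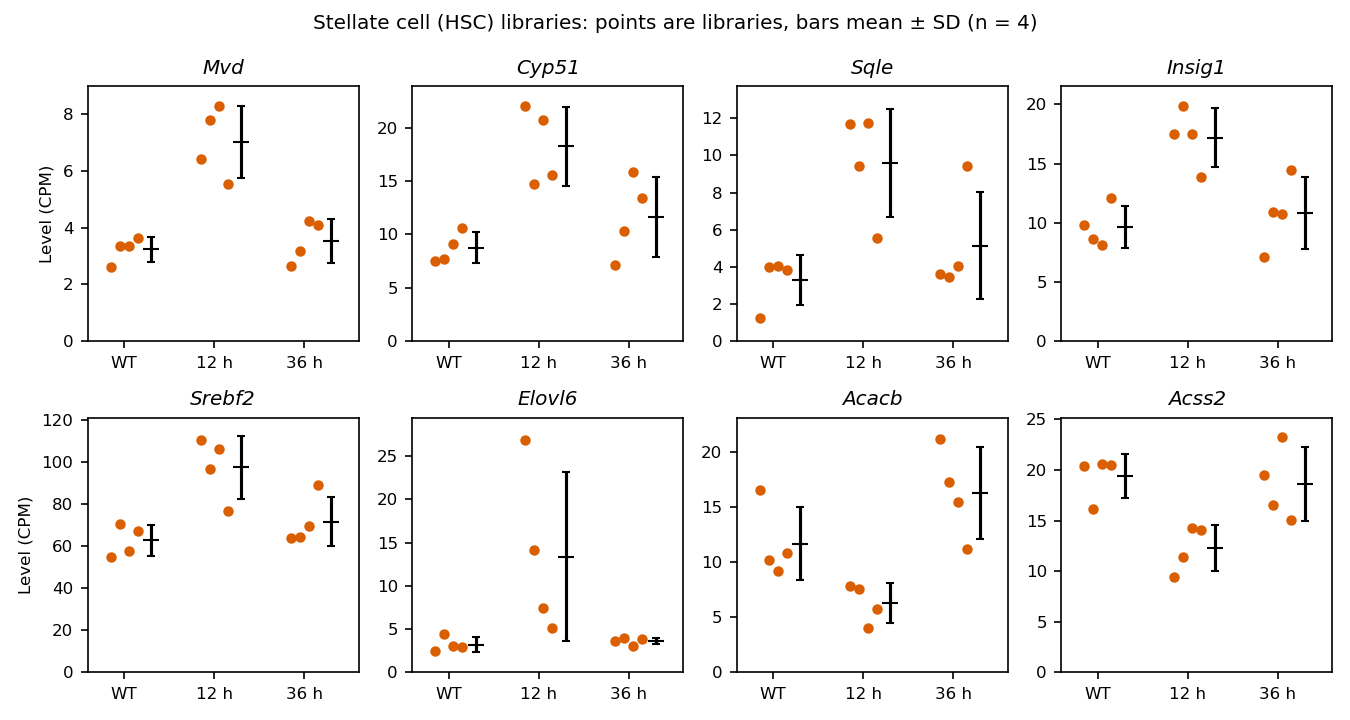
Levels of 8 genes in HSC libraries at WT, 12 h and 36 h, in CPM, with 1 point per library (replicates 1 to 4 from left to right) and mean ± SD beside them. Mvd, Cyp51, Insig1 and Srebf2 are higher in each 12 h library than in any WT library, and Acss2 is lower in each. The 36 h mean of each gene lies nearer to WT than the 12 h mean does. Replicate 4 at 36 h is above every WT library in Sqle (9.43 CPM), Srebf2 (89 CPM) and Insig1 (14.5 CPM).

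Fatty acid genes of HSCs divided at 12 h. Elovl6, which elongates palmitate, had 26.8, 14.2, 7.42 and 5.09 CPM in HSC 12 h libraries, against 2.46, 4.43, 3 and 2.93 CPM in HSC WT libraries (log2 fold change 2.09 ± 0.41, adjusted p = 0.00204). It was the largest rise of the 34 genes, with all 12 h libraries above WT but spread over several-fold among themselves. Me1 had 98.9, 105.5, 93.1 and 82.7 CPM in HSC 12 h libraries, against 112, 136, 141 and 133 CPM in HSC WT libraries (-0.44 ± 0.11, adjusted p = 0.00762). Acss2, which makes acetyl-CoA from acetate, fell to 12.3 ± 2.3 CPM in HSC 12 h libraries, against 19.4 ± 2.17 CPM in HSC WT libraries (-0.64 ± 0.16), and Acacb fell to 6.29 ± 1.77 CPM, against 11.7 ± 3.31 CPM (-0.87 ± 0.25). None of these 3 falling genes overlapped between groups. Fasn averaged 121.7 ± 15.4 CPM in HSC 12 h libraries and 93.4 ± 9.27 CPM in HSC WT libraries, a rise (0.40 ± 0.13, adjusted p = 0.0343) with overlapping groups. Acly, the ATP-citrate lyase, was higher in each 12 h library (171.5 ± 5.15 CPM, against 151.8 ± 5.14 CPM at WT) without being called (adjusted p = 0.1).

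Of the 15 calls in HSCs at 12 h, 11 held in each of 13 alternatives, which include leaving out each library. Fasn was lost in 7 of them, among them without HSC WT replicate 1, 2 or 3 and HSC 12 h replicate 1, 2 or 3 (adjusted p up to 0.0904). Sc5d was also lost in 7, among them without HSC WT replicate 1, 3 or 4 and HSC 12 h replicate 1, 3 or 4 (up to 0.0974). Acacb was lost without HSC WT replicate 1 or HSC 12 h replicate 3 (up to 0.0674) and Fdft1 without HSC 12 h replicate 3 (0.0727). Exons of Cyp51 overlap those of Akap9 by 166 bases, exons of Fdft1 those of Ctsb by 774 bases and exons of Fdps those of Gm43738 by 1124 bases. How the reads of such stretches were counted is not given.

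Other RNAs moved with the same comparison. The summed level of 8 Kupffer cell markers was 0.29 to 2.29 CPM in HSC 12 h libraries and 2.72 to 14.8 CPM in HSC WT libraries, with 3 of 5 tested markers called lower and 2 of the 8 at 0 in all 12 h libraries. The sum of 8 LSEC markers was 23.6 to 45.1 CPM in HSC 12 h libraries and 38.7 to 89.3 CPM in HSC WT libraries, with 1 of 8 called lower. The sum of 8 hepatocyte markers was 241.6 to 439.6 CPM in HSC 12 h libraries and 254.7 to 364.7 CPM in HSC WT libraries, with 1 of 8 called higher. The sum of 8 stellate cell markers was 9220 to 13880 CPM in HSC 12 h libraries and 15240 to 17030 CPM in HSC WT libraries, with 2 called higher and 2 lower. Their part in the changes of the 34 genes was not tested.

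In LSECs the clearest changes at 12 h were falls of Acacb and Acss2. Of the 34 genes 2 were called higher and 5 lower in LSEC 12 h libraries than in LSEC WT libraries, which is 7 genes where 18.2% of all 12286 genes tested were called (9.74% higher and 8.5% lower), a share close to that of all genes. A fit of only the 12 h and WT libraries called 3 higher and 2 lower, so the balance of directions was not kept. The median log2 fold change was -0.13 over the 34 genes and -0.02 over all genes. By role, 1 of 5 regulators rose and 1 fell, 1 of 18 sterol synthesis genes fell, Stard4 fell, and 1 of 10 fatty acid genes rose and 2 fell. At 36 h none was called against WT with edgeR or DESeq2, 1 had an unadjusted p under 0.05, and edgeR called 0% of all genes.

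Acacb and Acss2 fell in LSECs as in HSCs. Acacb had 6.04, 6.07, 5.01 and 4.42 CPM in LSEC 12 h libraries, against 13, 11.1, 10.4 and 8.86 CPM in LSEC WT libraries (log2 fold change -0.99 ± 0.16, adjusted p = 0.00133). Acss2 had 6.17, 6.21, 6.94 and 8.26 CPM in LSEC 12 h libraries, against 14.9, 10.2, 15.4 and 11.8 CPM in LSEC WT libraries (-0.91 ± 0.18, adjusted p = 0.0047). In both genes each 12 h library was below each WT library, and both calls held in all 13 alternatives. Acaca rose, with 15.6, 19.8, 19.5 and 20.5 CPM in LSEC 12 h libraries, against 16.5, 13.1, 10.1 and 11.5 CPM in LSEC WT libraries (0.58 ± 0.15, adjusted p = 0.0187). There LSEC WT replicate 1 was above the lowest 12 h library. Per kilobase, the ratio of Acaca to Acacb was 2.32 to 4.16 in LSEC 12 h libraries, against 0.869 to 1.17 in LSEC WT libraries, and 3.37 to 4.89 in HSC 12 h libraries, against 1.83 to 2.72 in HSC WT libraries. In both cell types the 12 h ratios lay wholly above the WT ratios.

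Among the regulators and the carrier, Scap had 69.7, 67, 59.5 and 57 CPM in LSEC 12 h libraries, against 58.1, 46.3, 44.8 and 47.4 CPM in LSEC WT libraries (log2 fold change 0.38 ± 0.11, adjusted p = 0.0233), a rise in which LSEC WT replicate 1 overlapped the 12 h libraries. Insig2 had 28.3, 29.5, 36.6 and 36.8 CPM in LSEC 12 h libraries, against 39.5, 38.8, 49.7 and 46.7 CPM in LSEC WT libraries (-0.40 ± 0.12, adjusted p = 0.039), with no overlap. Stard4 had 27.3, 30.1, 30.7 and 35.4 CPM in LSEC 12 h libraries, against 34, 40.2, 46 and 43.5 CPM in LSEC WT libraries (-0.39 ± 0.11, adjusted p = 0.0263), where the highest 12 h library was above the lowest WT library. Lss had 0.404, 0.237, 0.354 and 0.215 CPM in LSEC 12 h libraries, against 0.56, 0.395, 1.25 and 1.19 CPM in LSEC WT libraries (-1.46 ± 0.47, adjusted p = 0.0449), a fall at a level of few reads with overlapping groups.

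**Figure D3:**
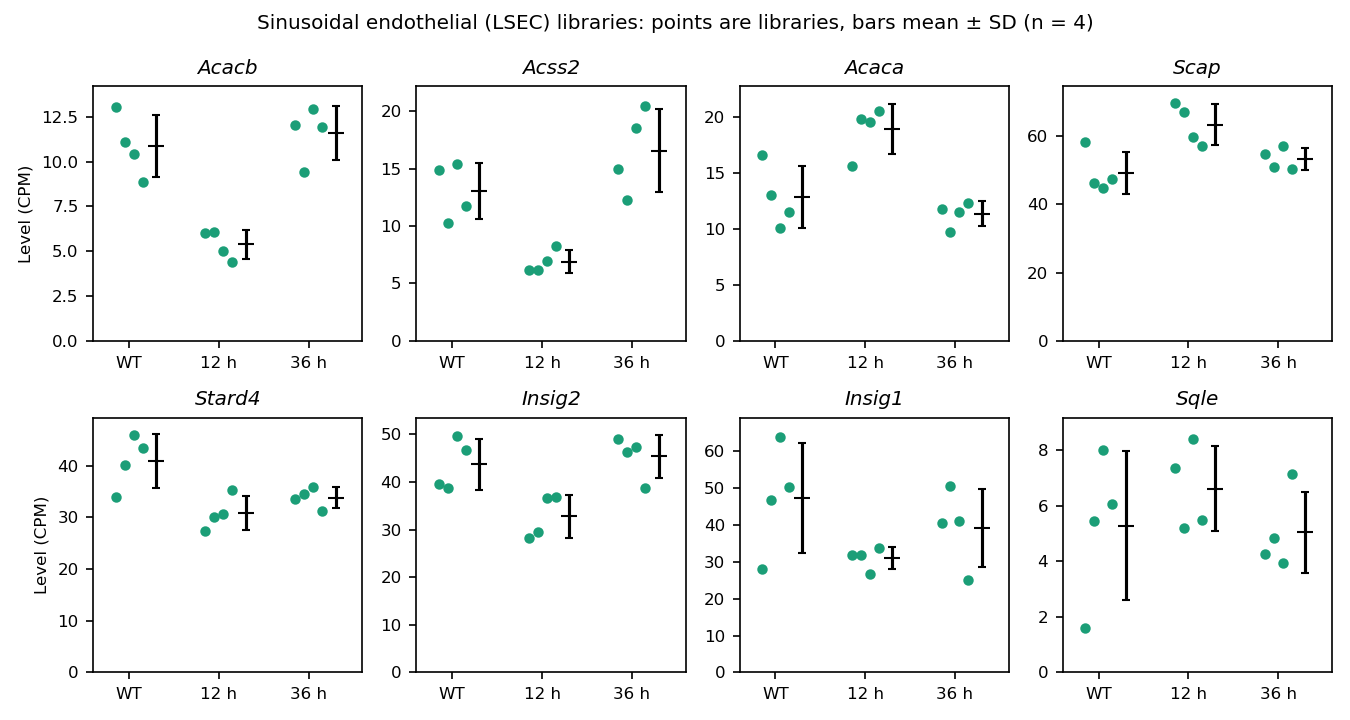
Levels of 8 genes in LSEC libraries at WT, 12 h and 36 h, in CPM, drawn as for HSCs. Acacb and Acss2 are lower in each 12 h library than in any WT library and near WT at 36 h, and Insig1 and Sqle, shown because they rose in HSCs, have overlapping groups.

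The LSEC count depended on single libraries. It was 3 without LSEC WT replicate 3, 2 without LSEC WT replicate 4, and 4 without LSEC 12 h replicate 1 or LSEC 12 h replicate 2, and ranged up to 9 without one of the others. The calls for Lss, Insig2, Stard4, Scap and Acaca were each lost in 3 to 9 of the 13 alternatives, with adjusted p up to 0.13. Fasn averaged 11.7 ± 1.41 CPM in LSEC 12 h libraries and 6.39 ± 2.43 CPM in LSEC WT libraries, with each 12 h library above WT, and just missed the call (adjusted p = 0.0547). In LSECs the 8 Kupffer cell markers summed to 1.64 to 4.41 CPM at 12 h and 10.2 to 22.9 CPM at WT, with 4 of 7 tested called lower and 1 of 8 at 0 in all 12 h libraries. The 8 hepatocyte markers summed to 67.7 to 136.6 CPM in LSEC 12 h libraries and 33.7 to 139.9 CPM in LSEC WT libraries, with none of 8 called with edgeR and 1 at an unadjusted p under 0.05. The sum of 8 stellate cell markers was 133.3 to 208.9 CPM in LSEC 12 h libraries and 34.3 to 104.4 CPM in LSEC WT libraries, with 1 of 7 tested called higher. The sum of the 8 LSEC markers was 14620 to 17900 CPM in LSEC 12 h libraries and 19140 to 22150 CPM in LSEC WT libraries, without overlap, with 1 of 8 called higher and 1 lower. Malat1 stood at 269.8 to 504.4 CPM in LSEC 12 h libraries and 468.6 to 811.2 CPM in LSEC WT libraries (called lower, adjusted p = 0.0443). Reads in no gene made up 4.9 to 6.39% at 12 h and 6.63 to 7.43% at WT, again without overlap. The part of these measures in the LSEC changes was not tested.

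**Figure D4:**
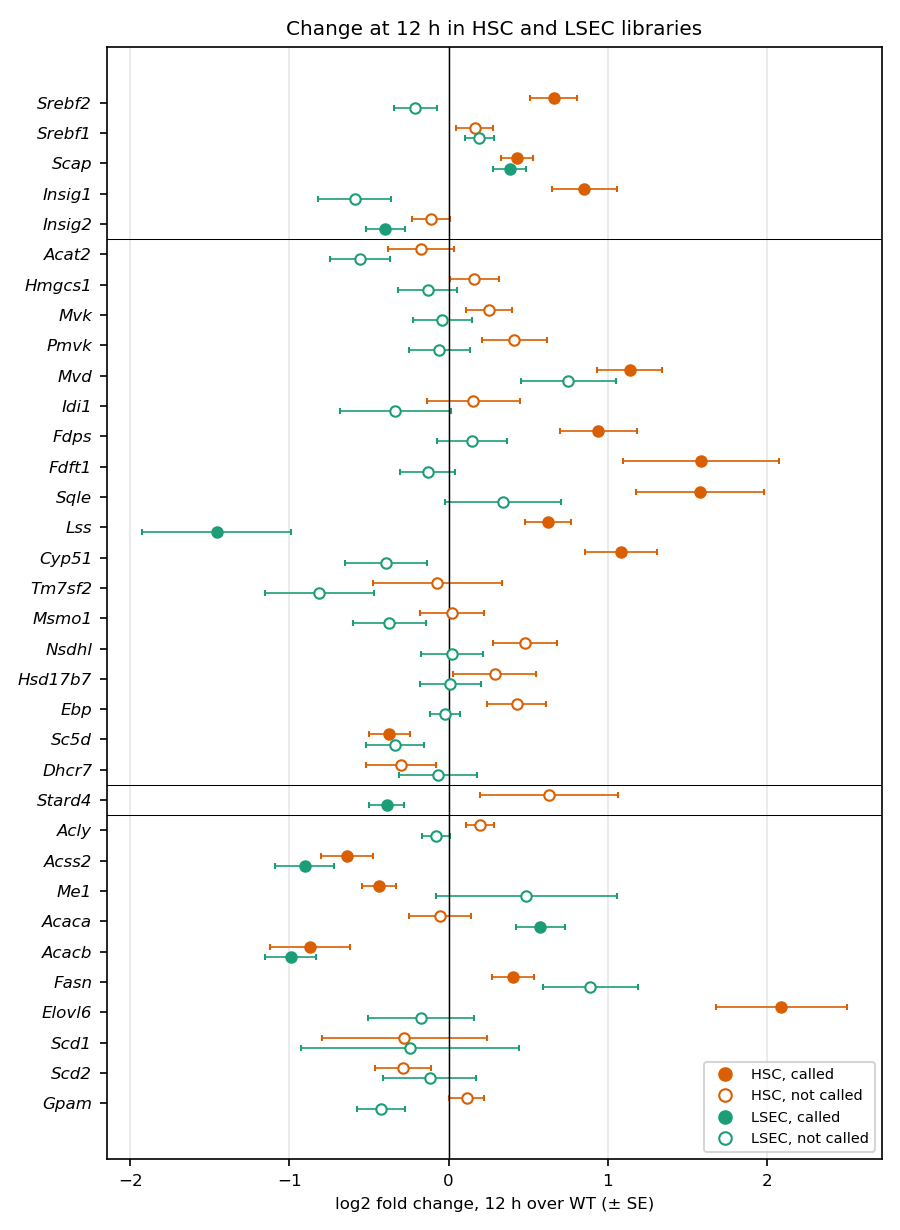
Log2 fold change of each of the 34 genes at 12 h over WT, with its SE, in HSC and LSEC libraries, with filled points for called genes and thin lines between regulators, sterol genes, the sterol carrier and fatty acid genes. Acacb and Acss2 lie to the left and Scap to the right in both cell types, while Lss, Insig1 and Cyp51 lie on opposite sides of 0.

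The difference between the responses of HSCs and LSECs was tested directly. Over all 36 libraries, the 12 h response was called larger in HSCs than in LSECs for 2 of the 34 genes and smaller for none, where 1.62% of 14104 genes were called (0.822% larger and 0.801% smaller). Cyp51 differed by 1.47 ± 0.37 on the log2 scale (adjusted p = 0.0302), with a change of 1.08 in HSCs and one of -0.40 in LSECs that was not called. Insig1 differed by 1.44 ± 0.37 (adjusted p = 0.036), with 0.85 in HSCs and -0.59 in LSECs, again not called in LSECs. In the LSEC libraries Insig1 had 31.9, 31.9, 26.7 and 33.6 CPM at 12 h, against 27.9, 46.8, 63.9 and 50.4 CPM at WT, so that only LSEC WT replicate 1 overlapped the 12 h libraries. Both calls were lost when single libraries were left out, with adjusted p up to 0.103, the count falling to 0 without any 1 of HSC WT replicates 1, 2 and 3, HSC 12 h replicates 1 and 3, LSEC WT replicates 3 and 4, and LSEC 12 h replicates 2 and 4. A further fit took pairs of same-numbered HSC and LSEC libraries as a block, without hepatocyte libraries, and called 797 of all 13456 genes. The count among the 34 was then 7, all larger in HSCs. The 5 added were Srebf2 (0.87, adjusted p = 6.83e-04), Sqle (1.16, adjusted p = 0.0178), Lss (2.06, adjusted p = 0.0205), Fdft1 (1.83, adjusted p = 0.0312) and Elovl6 (1.92, adjusted p = 0.0332). Without the block the same libraries gave 5 calls, all larger in HSCs, where 467 of all 13456 genes were called. At 36 h no response differed between any 2 cell types for the 34 genes, with edgeR or DESeq2 and with none at an unadjusted p under 0.05. There edgeR called 0% of all genes between HSCs and LSECs, and 0.00709% for each of them against hepatocytes.

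Between 12 h and 36 h part of the changes of HSCs and LSECs ran back towards WT. In HSCs 3 of 34 genes were called higher and 7 lower at 36 h than at 12 h, where 27.9% of all genes were called (12.9% higher and 15% lower). Acacb rose to 16.3 ± 4.14 CPM at 36 h, against 6.29 ± 1.77 CPM at 12 h (log2 fold change 1.34 ± 0.25), Mvd fell to 3.54 ± 0.77 CPM, against 7.01 ± 1.27 CPM (-1.01 ± 0.20), and Elovl6 fell to 3.62 ± 0.398 CPM, against 13.4 ± 9.75 CPM (-1.91 ± 0.41). These 3 calls held in all 13 alternatives. The count was 4 when HSC 36 h replicate 3 was left out, 6 when HSC 12 h replicate 3 was, and 5 in a fit of only the 12 h and 36 h libraries. In LSECs 5 genes were called higher and 1 lower at 36 h than at 12 h (21.3% of all genes, 10.6% higher and 10.8% lower), led by Acss2 (16.6 ± 3.61 CPM at 36 h, against 6.9 ± 0.977 CPM at 12 h, 1.24 ± 0.18) and Acacb (11.6 ± 1.51 CPM, against 5.38 ± 0.807 CPM, 1.08 ± 0.16). Acaca fell to 11.3 ± 1.11 CPM at 36 h in LSECs, against 18.9 ± 2.22 CPM at 12 h (-0.76 ± 0.15). In both cell types the share of the 34 genes called was near that of all genes. Fdps, Fdft1, Sqle, Scap, Fasn and Sc5d in HSCs, and Scap and Stard4 in LSECs, were called at 12 h over WT but not here. Acly in HSCs and Tm7sf2 in LSECs were called here but not at 12 h over WT. In HSCs the 36 h mean of Acacb lay above that of WT (11.7 ± 3.31 CPM), without a call. These comparisons share their 12 h libraries with the comparisons against WT, so the opposite signs are not independent of them.

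Lists of genes beside these pathways were also counted in HSCs and LSECs at 12 h. Of all genes, 17% were called higher and 15.1% lower in HSCs, and 9.74% higher and 8.5% lower in LSECs. With lists of 8 to 13 genes, counts of 1 to 3 say nothing particular about a list. Of 8 genes of SREBP processing and degradation, 1 rose and none fell in HSCs at 12 h, and 2 rose and none fell in LSECs. Erlin1, which takes part in the degradation that sterols trigger, was the gene called in both, at 32.7 ± 5.87 CPM in HSC 12 h libraries and 20.1 ± 1.99 CPM in HSC WT libraries, and at 42 ± 6.85 CPM in LSEC 12 h libraries and 26.9 ± 2.6 CPM in LSEC WT libraries. Of 10 further sterol genes tested in HSCs 2 rose, among them Aacs, which activates acetoacetate for lipid synthesis (log2 fold change 0.70 ± 0.15), and of 11 tested in LSECs Aacs was the 1 that rose (0.56 ± 0.14). Of 13 further fatty acid and triglyceride genes, elongase Elovl1 rose (0.61 ± 0.14) and desaturase Fads1 fell (-0.60 ± 0.11) in HSCs. In LSECs Thrsp, a lipogenic regulator, fell (-1.55 ± 0.35), as did the desaturases Fads2 (-0.62 ± 0.16) and Fads1 (-0.37 ± 0.11). Of 12 fatty acid oxidation genes in HSCs at 12 h, Acaa2, a mitochondrial thiolase, fell to 163.9 ± 51.5 CPM, against 489.5 ± 95 CPM at WT (-1.56 ± 0.20), Cpt2 fell (-0.39 ± 0.11) and Hadha rose (0.32 ± 0.09). None of 11 tested in LSECs was called with edgeR, and none had an unadjusted p under 0.05.

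In hepatocytes none of the 34 genes was called at 12 h or at 36 h against WT, or between those times, with edgeR or DESeq2. None had an unadjusted p under 0.05, and edgeR called 0% of all 11326 genes tested in each of these comparisons. The medians over the 34 genes were 0.08 at 12 h and 0.04 at 36 h on the log2 scale. The spread within groups was wide, as with Fasn at 1223, 2824, 3415 and 2676 CPM in 12 h replicates 1 to 4 and 621, 241, 4008 and 6645 CPM at 36 h, against 708, 963, 2650 and 4619 CPM at WT. The groups overlapped widely. On simulated data with the spread of each gene in these libraries 51.4% of changes of 2-fold were recovered at 12 h and 52.3% at 36 h, so changes of this size could be missed. False calls were 8.74% and 3.7%. Each gene was drawn independently there, so a spread shared by many genes in the same libraries, as described below, was not reproduced. The changed genes were drawn from all genes above a low level, so the shares recovered are not those of the 34 genes. Over the 12 hepatocyte libraries the highest value was 27.6 times the lowest for Fasn and 1.4 times for Insig2. For 1 gene the responses of HSCs and hepatocytes differed at 12 h (9.2% of all genes called, 5.03% larger and 4.17% smaller in HSCs): Elovl6 changed by 2.43 ± 0.76 more in HSCs (adjusted p = 0.0392), a call lost in 8 of 20 alternatives with adjusted p up to 0.141. It was lost without HSC WT replicate 1, 3 or 4, HSC 12 h replicate 1, hepatocyte WT replicate 4 or hepatocyte 12 h replicate 1, 2 or 4. No response differed between LSECs and hepatocytes at 12 h with edgeR (3.57% of all genes called, 2 of the 34 at an unadjusted p under 0.05), and DESeq2 called Lss lower in LSECs.

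The hepatocyte libraries fell on different sides of a nucleus-retained RNA. Malat1, a long noncoding RNA kept in the nucleus, stood at 333.1 to 678.5 CPM in 5 libraries (WT replicates 1 and 2, 12 h replicate 1, 36 h replicates 1 and 2) and at 35.3 to 66.7 CPM in the other 7. These are libraries divided by a measured RNA at 100 CPM, not groups of the study, so what follows is a description with no test. In 24 of the 34 genes each of the 5 libraries with high Malat1 was below each of the 7 others, where 12.8% of 11326 genes showed that order. In none was each above, where 10.4% of genes were. The mean was lower on the high Malat1 side for 32 of the 34, and the median log2 ratio of the means, high over low Malat1, was -0.90, against -0.04 over all genes. The exceptions were Insig2 (486.5 ± 66.8 CPM over the 5 libraries and 447 ± 34.3 CPM over the 7) and Idi1, the isomerase of isopentenyl diphosphate (620.5 ± 116 and 602.5 ± 88.9 CPM).

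Fatty acid genes were furthest apart in this division. In 9 of the 10 the 2 sets of libraries did not overlap, with a median log2 ratio of -1.88, against 11 of 18 sterol synthesis genes (-0.63) and 4 of 5 regulators (-1.02). Scd1 ran from 3651 to 7458 CPM, with a median of 6407, in the 5 libraries with high Malat1 and from 22590 to 52270 CPM, with a median of 33540, in the 7 others. Fasn averaged 751.2 ± 370 CPM over the 5 and 3834 ± 1443 CPM over the 7. Gpam, which starts triglyceride synthesis, averaged 148.1 ± 57 and 657.8 ± 246 CPM, and Srebf1 254.1 ± 80.8 and 891.5 ± 247 CPM. In each of these genes the lowest of the 7 was well above the highest of the 5. Among sterol genes Dhcr7 stood out at 96.2 ± 17.2 CPM over the 5 and 395.2 ± 69.5 CPM over the 7, beside Sqle at 212.3 ± 43.4 and 501 ± 65.3 CPM, whereas Hmgcs1 at 1173 ± 307 and 1806 ± 236 CPM overlapped.

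**Figure D5:**
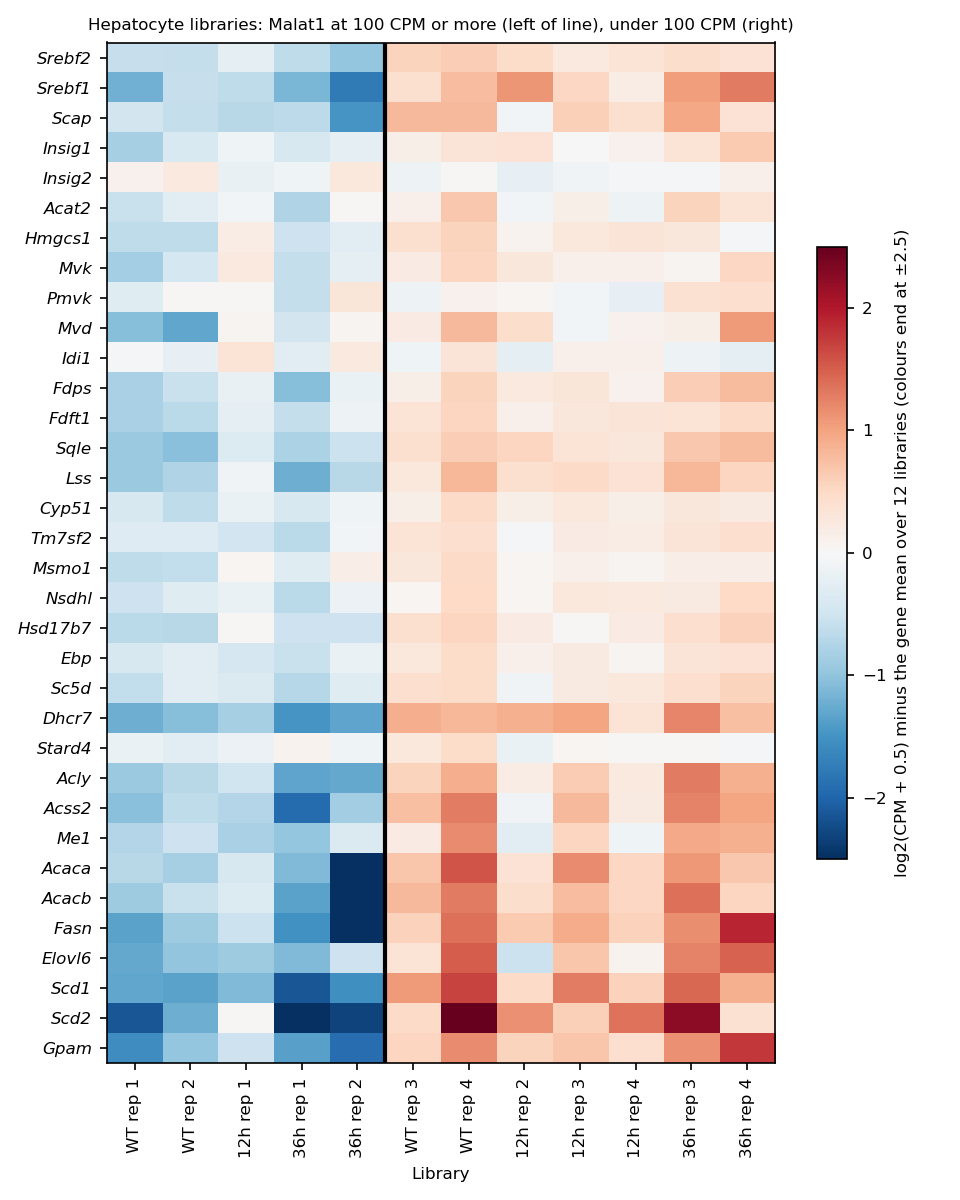
Level of each of the 34 genes in the 12 hepatocyte libraries, as log2(CPM + 0.5) minus the mean of the gene over these libraries, with the 5 libraries at 100 CPM or more of Malat1 left of the line and the 7 under it to the right. Most genes are blue (low) on the left and red (high) on the right, most deeply among the fatty acid genes in the lowest rows.

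The same libraries can be divided within each time, where the shares of all genes are not given. The order was weaker at 12 h, with a median log2 ratio over the 34 genes of -0.54, against -1.18 at WT and -1.11 at 36 h. The mean over libraries with high Malat1 was the lower one for 33 of 34 genes at WT (2 libraries against 2), 31 at 12 h (1 against 3) and 32 at 36 h (2 against 2), and for 30 genes at all 3 times. Scd1 stood at 0.151, 0.262 and 0.126 times the level of the other libraries at WT, 12 h and 36 h. With unscaled CPM, under which the median log2 ratio of all genes was 0.18, each high Malat1 library was below the others in 16 of 34 genes and above them in 1, where 5.24% and 21.3% of all genes had those orders, and 30 had the lower mean. With relative log expression scaling the count below was 23, where 13.5% of all genes had that order. With the Malat1 side as a term, or among the libraries of either side alone, none of the 34 genes was called for time.

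Other gene groups showed how far this division reached in hepatocytes. Of 15 further fatty acid and triglyceride genes 8 had each high Malat1 library below the others (median log2 ratio -0.76), and of 10 further sterol genes tested 7 did and Acat1 had the reverse order. Of 12 fatty acid oxidation genes 1 was below and 1 above (median -0.07). Hepatocyte markers had 3 of 8 below, with a median of -0.31. Neat1, another nucleus-retained RNA, averaged 89.3 ± 50.3 CPM over the 5 libraries and 6.97 ± 2.71 CPM over the 7. Reads in no gene made up 6.04 to 9.02% in the 5 libraries and 5.06 to 5.79% in the 7. The sum of monocyte and neutrophil markers was 0.585 to 6.39 CPM in the 5 and 0 to 0.399 CPM in the 7, and that of Kupffer cell markers 0.381 to 26.3 and 0 to 3.74 CPM. The part of nuclear RNA, RNA quality or other cells in the levels of the 34 genes was not tested.

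Within groups, single libraries were often the lowest or the highest across the sterol genes, and the 2 cell types shared the number in some of these cases and not in others. HSC WT replicate 1 was the lowest of the 4 libraries in 10 of the 18 sterol synthesis genes, and LSEC WT replicate 1 in 14 of them. Replicate 3 was the highest in 10 of 18 in HSC 12 h libraries and in 13 of 18 in LSEC 12 h libraries. At 36 h replicate 4 was the highest in 10 of 18 in HSCs and in 10 of 18 in LSECs. At 12 h the lowest libraries differed, with HSC replicate 4 lowest in 8 of 18 and LSEC replicate 1 in 10. They differed at 36 h too, where HSC replicate 1 was lowest in 12 of 18 and LSEC replicate 1 in 4, while LSEC replicate 3 was lowest in 11 and HSC replicate 3 in 0 and highest in 7. These counts describe libraries, and their relation to treatment was not tested.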

How the data were processed

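RNA was sequenced from 36 libraries of 3 mouse liver cell types, with 4 libraries in each of 9 groups. The authors deposited 1 table of read counts per gene and library. Per the submitters' processing notes the tools were FastQC 0.11.4, Trimmomatic 0.35, TopHat2 2.1.0 and SAMtools 0.1.18 with build mm10. How reads were assigned to genes, by which annotation and whether by strand, is not given in the sources used here. Lines that name no gene were left out, and reads in no gene made up 4.9 to 9.02%. No pair of libraries within a group (54 pairs) had identical counts.

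Genes were tested on the deposited counts with edgeR 4.0.16 (R 4.3.3, limma 3.58.1), by quasi-likelihood F tests with TMM scaling, filterByExpr (minimum count 10, total 15) and Benjamini-Hochberg adjustment over all genes, at 0.05. Times were compared in 1 fit per cell type, cell types in 1 fit per time, and responses by interaction terms over all libraries. The SE is the log2 fold change over the square root of F. DESeq2 1.42.0 was an alternative, beside other scaling, no filter, a replicate block, fits of 2 groups and leaving out each library. Levels per kilobase use the exon length of GENCODE on GRCm38. On simulated counts the test recovered 76.1% of 2-fold changes for HSCs at 12 h and 65.5% for LSECs at 12 h, with 4.96% and 3.17% false calls. The highest rate of false calls among the comparisons with WT was 8.74%, for hepatocytes at 12 h. Genes were drawn independently, and fewer were changed than were called in the data for HSCs and LSECs at 12 h. The changed genes were drawn from all genes above a low level, so these shares are not the recovery for the members.

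The members and lists were chosen with earlier results of these data known. Any member could be named. Values per library go to the up to 8 called members with the smallest adjusted p in each comparison with WT, paralogue pairs are given as ranges of their ratio, and up to 3 called genes of each other list could be named. The core of the sterol element replaced a longer form of it that had been searched first, and Acat1 was named after its values were seen. Same-numbered HSC and LSEC libraries deviated together at each time (correlation of deviations 0.103 to 0.402 at WT, 0.207 to 0.481 at 12 h and 0.17 to 0.274 at 36 h, all 4 pairs over 0.1). Each HSC library was closest to its own number at 12 h and 36 h, but only 2 of 4 were at WT. Same-numbered hepatocyte libraries at 36 h and WT (0.44 to 0.575) and HSC libraries at 36 h and WT (0.11 to 0.263) also deviated together. Among these hepatocyte libraries, unlike numbers on the same side of Malat1 correlated too (0.31 to 0.569), and 2 of 4 HSC 36 h libraries were closest to their own number.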

Additional observations from a re-analysis of the deposited data

Results flagged for a closer look

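Of 306 groups of 4 libraries (34 genes in 9 groups), 18 held 1 library far from the others, where chance gives about 1 in 20. In HSC WT replicate 1, Fdps (8.64 CPM), Fdft1 (0.351 CPM) and Sqle (1.26 CPM) were far below the other 3 libraries, which had 12.6 to 12.9, 2.89 to 3.1 and 3.82 to 4.03 CPM. HSC WT replicate 2 was low in Acat2 (3.71 CPM) and Acss2 (16.2 CPM). Tm7sf2 was high in HSC 12 h replicate 3 (1.79 CPM) and low in LSEC WT replicate 1 (1.26 CPM), and Idi1 was high in LSEC 12 h replicate 3 (32.3 CPM).

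At 36 h, LSEC replicate 4 was high in Srebf2 (86.2 CPM), Mvk (23.97 CPM) and Nsdhl (16.8 CPM). Sc5d was high in LSEC 36 h replicate 2 (33.6 CPM), and Srebf1 was low in LSEC 36 h replicate 1 (88.8 CPM). In HSC 36 h libraries Sqle was high in replicate 4 (9.43 CPM), Scd1 high in replicate 3 (123.9 CPM) and Dhcr7 low in replicate 1 (11.5 CPM). In hepatocyte 36 h replicate 1, which has high Malat1, Pmvk (79.3 CPM) and Msmo1 (377.4 CPM) were low.

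The 12 h response differed between cell types by a test of the difference for Insig1 (1.44 higher on the log2 scale in HSCs than in LSECs), Cyp51 (1.47 higher in HSCs than in LSECs) and Elovl6 (2.43 higher in HSCs than in hepatocytes).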

How the results depend on the processing

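No called gene changed direction in any alternative. Of the called genes, 1255 values under other settings stayed called and 23 did not, and 2164 values without 1 library stayed called and 164 did not. Leaving out 1 library gave 11 to 15 genes for HSCs at 12 h, 4 to 11 for HSCs at 36 h over 12 h, 2 to 9 for LSECs at 12 h and 4 to 7 for LSECs at 36 h over 12 h. It gave 11 to 16, 13 to 17 and 9 to 10 between HSCs and LSECs at WT, 12 h and 36 h, and 33 to 34 for each comparison with hepatocytes. The 12 h responses gave 0 to 2 (HSCs against LSECs), 0 to 1 (HSCs against hepatocytes) and 0 to 1 (LSECs against hepatocytes). A fit of only 2 groups gave 5 genes for HSCs at 36 h over 12 h, and 5 for LSECs at 12 h (3 higher and 2 lower, against 2 and 5). HSC and LSEC libraries alone gave 25 genes with the replicate block and 23 without it at WT, 23 and 19 at 36 h, and 7 and 5 for the difference of 12 h responses. The number of all genes called was higher in these fits too. The replicate block gave 2 genes for HSCs against hepatocytes, and DESeq2 1 for LSECs against hepatocytes. The block gave 14 genes for HSCs at 12 h and 8 for LSECs at 12 h, and moved no other count of genes by over 1.5 times. The fits of HSC and LSEC libraries alone were chosen after seeing the data. The cause of these differences was not tested. Genes under 1 CPM, such as Lss in LSECs, rest on few reads.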
